A study of Saccharomyces cerevisiae with 21 samples.

Results

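The comparison described here is yeast after 1 day of growth, at the postdiauxic shift, against the same strain growing in log phase on glucose. It consists of 2 ribosome profiling libraries, 1 for each condition, of the 21 samples of a series on glucose starvation and multi-day growth. Ribosome profiling sequences the short mRNA fragments that ribosomes shield from nuclease (footprints), so the reads of a gene follow how many ribosomes were on its mRNAs. The 1 day culture was grown in YPD, a rich medium of yeast extract, peptone and dextrose, until it had passed the diauxic shift, and the log phase culture was taken from the same medium at an optical density of 0.4 to 0.6. Both were Saccharomyces cerevisiae BY4741, a haploid strain of mating type a that lacks HIS3, LEU2, MET15 and URA3 function and is labelled wild-type, both were harvested without cycloheximide pretreatment, and rRNA fragments were removed from both with RiboZero. Another YPD library, from stationary phase after 5 days, is set beside them where it adds a later stage.

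Yeast given glucose ferments it to ethanol even when oxygen is present, and glucose keeps the genes for other carbon sources, respiration and stress resistance repressed through the Snf1 and protein kinase A pathways. When the glucose is gone, cells pause and then grow slowly by respiring the ethanol and acetate they made, which requires mitochondria, the glyoxylate cycle to build 4-carbon acids from 2-carbon units, and gluconeogenesis to make sugars. The same period is known for the laying down of trehalose and glycogen, the rise of stress proteins under the transcription factors Msn2 and Msn4, and low production of ribosomes.

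Values per gene were the deposited read counts, scaled to the library's total (CPM, counts per 1000000 reads), and the deposited polarity scores. The 1 day library held 575896 reads over 5363 genes and the log phase library 652361 reads over 5145 genes, so 1 read was worth 1.74 CPM at 1 day and 1.53 CPM in log phase. Because each condition has 1 library, no test and no p-value is possible. A gene is called higher or lower when its CPM, with 0.5 reads added to each count, differed at least 2-fold. Many ratios are given with the exact 95% interval that the 2 read counts allow, which covers counting error only. Ratios printed without one carry the same kind of error, which is wide where reads are few. The spread between libraries can be judged only from other log phase pairs of the series. Between 1 day and log phase 59.1% of genes differed by more than 2-fold, against 5.57% between replicate log phase libraries of pretreated cells and 12.8% between those of the time course. These pairs differ in depth from the pair of interest. The pretreated libraries held 4273703 and 5170260 reads, and those of the time course 3523240 and 94585. CPM are shares of a library, so more footprints on one gene and fewer on the others cannot be told apart. Genes with near-identical copies include most ribosomal protein pairs, TEF1 and TEF2, EFT1 and EFT2, and TIF1 and TIF2. Their counts depend on how shared reads were placed, and their values are uncertain.

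The strain's identity was visible in both libraries. Of the mating type a genes, STE2, the alpha-factor receptor, had 45.1 CPM at 1 day and 625 CPM in log phase, whereas the 4 alpha-specific genes together held 0.00104% of the reads at 1 day and 0.00107% in log phase. HIS3, LEU2, MET17 (the annotation's name for MET15) and URA3, deleted in whole or part in BY4741, together held 0.00191% at 1 day and 0.00659% in log phase.

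At 1 day, footprints had moved away from ribosomal proteins, the translation machinery and glucose fermentation and onto genes for using 2-carbon compounds, respiration, reserve carbohydrates and stress resistance. The ribosomal protein genes took 2.19% of all reads at 1 day, against 19.8% in log phase, and glycolysis and fermentation took 6.68%, against 15.4%. The 20 genes of the glyoxylate cycle, gluconeogenesis and 2-carbon use took 7.22% at 1 day, against 0.0567% in log phase. Of the 2021 genes with at least 100 reads over the 2 libraries, 626 (31.0%) were at least 2-fold higher at 1 day, 569 (28.2%) were at least 2-fold lower, and 826 lay between. The changes were far larger upward than downward: 145 genes were at least 16-fold higher and 46 at least 16-fold lower, and 71 were more than 100-fold higher. The median log2 ratio over these genes was 0.03.

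**Figure D1:**
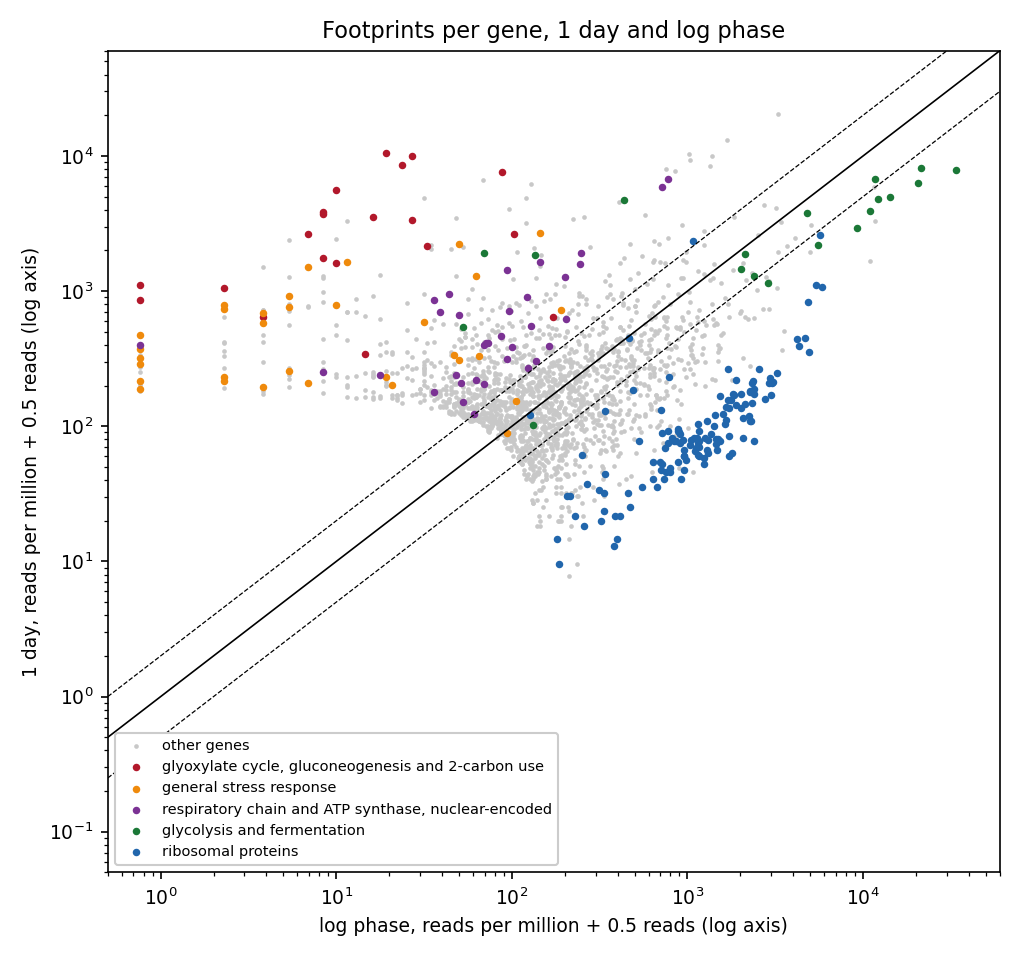
CPM of each of the 2021 genes in the 1 day library (vertical, log axis) and the log phase library (horizontal, log axis), 0.5 reads added to each; 1 point is 1 gene, the solid line is equality and the dashed lines are 2-fold. The glyoxylate, gluconeogenesis and 2-carbon genes and most stress genes lie far above the lines at low log phase levels, while nearly all ribosomal protein genes lie below them.

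The 12 largest rises, among genes with at least 200 reads at 1 day, were SFC1, IDP2, GRE1, ADY2, ACS1, NDE2, YIG1, REG2, SPG4, ATO2, ICL1 and YGR067C. Of these, SFC1, IDP2, GRE1, NDE2, YIG1, REG2 and SPG4 had no read at all in log phase, so their folds are lower bounds against a floor of 3 reads in that library. SFC1, the mitochondrial carrier that exchanges succinate for fumarate, had 641 reads at 1 day and was at least 242-fold higher. IDP2, the cytosolic NADP-dependent isocitrate dehydrogenase, had 495 reads and was at least 187-fold higher. The others of this kind do different things: NDE2 is a mitochondrial NADH dehydrogenase that faces the cytosol (at least 86.5-fold), REG2 is a regulatory subunit of the Glc7 phosphatase that acts in glucose repression (392 CPM at 1 day), and SPG4 is known from survival of heat in stationary phase (at least 81.6-fold).

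The 12 largest falls, among genes with at least 200 reads in log phase, were RPS20, RPL42A, RPL39, RPL22A, RPL31B, RPL9A, INA1, RPS16B, RPL12A, RPS18A, RPL29 and RPL27A, which are ribosomal protein genes with the exception of INA1. RPS20 (chromosome VIII, 75412 to 75777, plus strand), for a protein of the small subunit, had 76.4 CPM at 1 day and 2384 CPM in log phase and was 31.2-fold lower (23.1 to 43.1). INA1 had 45.1 CPM at 1 day and 1073 CPM in log phase, 23.8-fold lower (16.1 to 36.6).

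**Figure D2:**
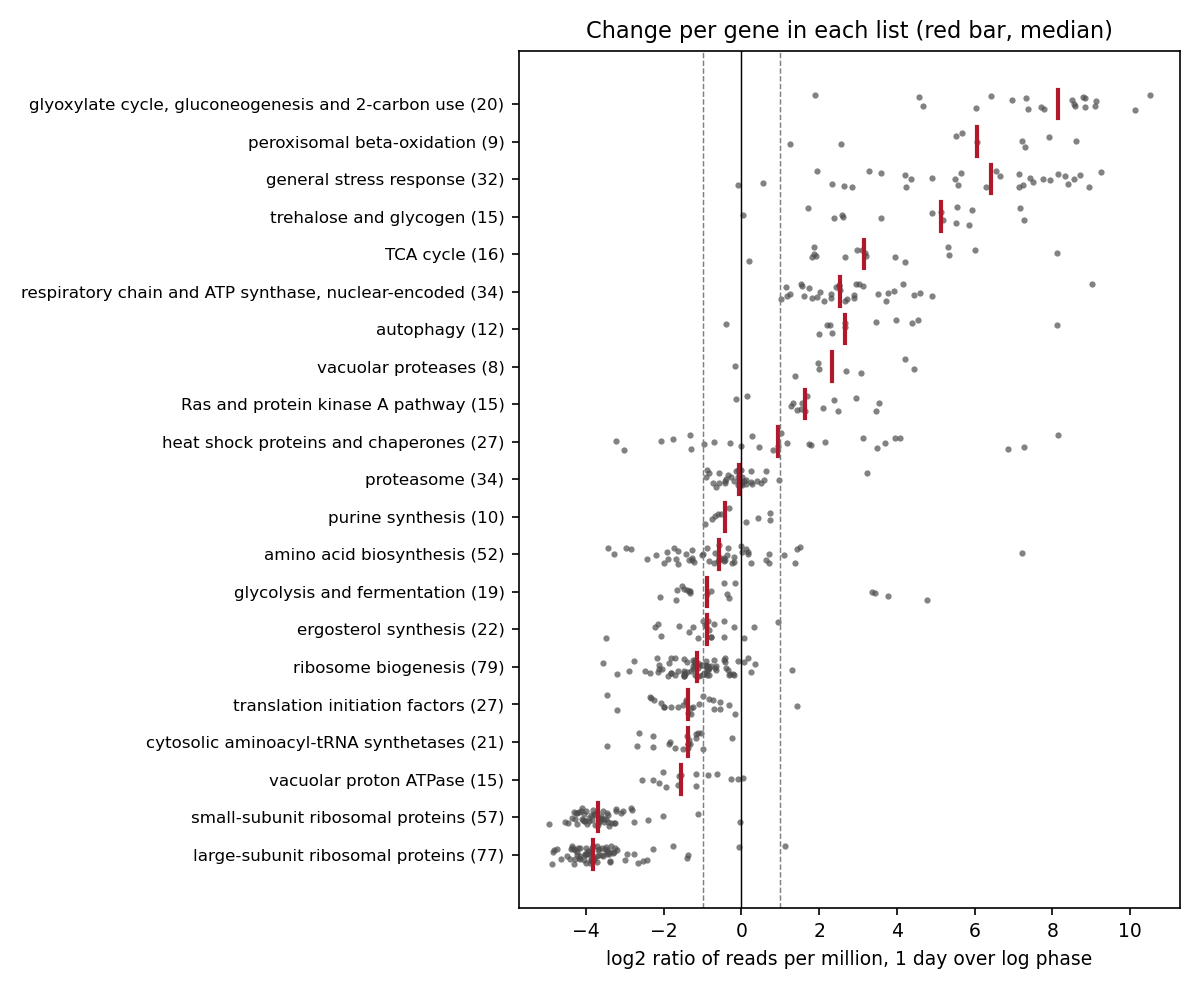
Log2 ratio of CPM, 1 day over log phase, for each gene with at least 100 reads over both libraries, in 21 gene lists; the number of genes is in brackets, points are genes, red bars are medians and dashed lines mark 2-fold. Medians run from 8.14 for the glyoxylate, gluconeogenesis and 2-carbon list to -3.83 for the large-subunit ribosomal proteins.

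Genes for using ethanol and acetate were higher throughout. All 20 members of the list passed the filter and were at least 2-fold higher at 1 day, with a median log2 ratio of 8.14 (7.74 with the genes at 0 in log phase placed at their bound). For 17 of them log phase gave fewer than 25 reads, so the filter was met through the 1 day reads and the count of 20 is a description. ACS1 (chromosome I, 42881 to 45022, minus strand, 1 coding exon), the acetyl-CoA synthetase used when glucose is absent, had 10449.8 CPM at 1 day (6018 reads) and 18.4 CPM in log phase (12 reads), a 568-fold difference (325 to 1100.0). ADH2 (chromosome XIII, 873291 to 874337, minus strand), the alcohol dehydrogenase that turns ethanol into acetaldehyde, had 8599 CPM at 1 day and 23.0 CPM in log phase, 374-fold higher (227 to 669). The log phase level of these 2 genes depended on the library. The time course log phase libraries, grown in synthetic medium, had 2256 and 1469.6 CPM of ADH2, which leaves log2 ratios of 1.93 and 2.55. They had 23.3 and 412 CPM of ACS1. Medium, culture and the placement of reads shared between similar genes may differ between these libraries, and the cause was not tested. Between these enzymes, ALD4, the mitochondrial aldehyde dehydrogenase that makes acetate, had 6194 CPM at 1 day and 127 CPM in log phase, 48.7-fold higher (39.2 to 61.3).

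Each dedicated step of the glyoxylate cycle and of gluconeogenesis had a ratio above 100-fold. ICL1, isocitrate lyase, had 3858 CPM at 1 day and 7.66 CPM in log phase, 503-fold higher (215 to 1552). MLS1, malate synthase, had 3553 CPM at 1 day and 15.3 CPM in log phase, 232-fold higher (126 to 484). PCK1 (chromosome XI, 631152 to 632801, plus strand), phosphoenolpyruvate carboxykinase and the first committed enzyme of gluconeogenesis, had 10049 CPM at 1 day and 26.1 CPM in log phase, 386-fold higher (241 to 662). FBP1, fructose-1,6-bisphosphatase and the last such enzyme, had 1601 and 9.20 CPM at 1 day and in log phase, 174-fold higher (79.7 to 476). MDH2, the cytosolic malate dehydrogenase, and CIT2, the peroxisomal citrate synthase, were also higher but had more reads in log phase, with ratios of 25.5-fold (20.0 to 33.1) and 87.1-fold (67.1 to 115).

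Transporters and shuttles for these compounds moved with the enzymes. ADY2, an acetate transporter, had 5576 CPM at 1 day and 9.20 CPM in log phase, and JEN1, the lactate and pyruvate permease, had 2648 CPM at 1 day and 6.13 CPM in log phase. The log phase values of ADY2 and JEN1 rest on 6 and 4 reads, so their ratios of 606-fold (278 to 1653) and 432-fold (168 to 1587) are wide. The carnitine acetyltransferases, which move acetyl units between compartments, gave 484-fold for YAT1, 128-fold for YAT2 and 229-fold for CAT2. The glycerol pathway was higher as well, at 66.9-fold (43.6 to 109) for GUT2, the mitochondrial glycerol-3-phosphate dehydrogenase, and 24.9-fold (12.9 to 55.3) for GUT1, glycerol kinase. The smallest difference in the list was that of ATO3, of the same protein family as ADY2, at 3.75-fold (3.02 to 4.67).

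Glycolysis did not move as a block. Of 21 listed genes 19 passed the filter, 9 were at least 2-fold lower, 4 were at least 2-fold higher, and the median log2 ratio was -0.88. Of all tested genes 28.2% were lower and 31.0% higher, so the number of higher ones is no excess. The 4 that were higher were TDH1, GLK1, ENO1 and HXK1, each an isozyme of a step that has another, more used isozyme in log phase. GLK1, glucokinase, had 1848 CPM at 1 day and 135 CPM in log phase (13.7-fold, 11 to 17.2), and HXK1 had 544 and 52.1 CPM (10.4-fold, 7.31 to 15.3), whereas HXK2, the hexokinase of glucose-grown cells, had 1153 CPM at 1 day and 2869.6 CPM in log phase (2.49-fold lower, 2.28 to 2.72). TDH1, a glyceraldehyde-3-phosphate dehydrogenase, was 27.8-fold higher (20.6 to 38.3) and ENO1, an enolase, 10.9-fold higher (9.62 to 12.3), but both were lower at 1 day when set against the log phase libraries of the time course, with log2 ratios of -2.35 and -1.81 for TDH1 and -1.10 and -0.62 for ENO1.

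The main glycolytic and fermentative enzymes were lower by 2.50- to 4.27-fold. PDC1 (chromosome XII, 232390 to 234081, minus strand), the pyruvate decarboxylase at the branch to ethanol, had 7878 CPM at 1 day and 33648 CPM in log phase, 4.27-fold lower (4.14 to 4.41). CDC19, the main pyruvate kinase, had 6307 CPM at 1 day and 20446 CPM in log phase (3.24-fold lower, 3.12 to 3.36). The others were ADH1, which makes ethanol (2.78-fold lower), GPM1, phosphoglycerate mutase (3.16-fold), ENO2, the other enolase (2.87-fold), TDH3, the main glyceraldehyde-3-phosphate dehydrogenase (2.63-fold), TPI1, triose phosphate isomerase (2.54-fold) and FBA1, aldolase (2.50-fold). Other enzymes lay within 2-fold: PGK1, phosphoglycerate kinase, had 6777 CPM at 1 day and 11684 CPM in log phase, and PGI1, phosphoglucose isomerase, had a log2 ratio of -0.33.

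Among hexose transporters, HXT1, HXT2 and HXT3 were lower and HXT5 was higher. Only 4 of 19 listed carriers passed the filter. HXT2 had 48.6 CPM at 1 day and 895 CPM in log phase (18.4-fold lower, 12.6 to 28), HXT3 was 10.1-fold lower (7.49 to 14) and HXT1 4.78-fold lower (3.20 to 7.37). HXT5, a carrier known from slow growth, had 2422 CPM at 1 day and 9.20 CPM in log phase, 263-fold higher (121 to 719), and was the 1 carrier of the 4 that was called higher.

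Mitochondrial oxidation was higher throughout. The TCA cycle genes took 3.06% of the reads at 1 day, against 0.311% in log phase, and 15 of the 16 genes, which all passed the filter, were at least 2-fold higher, with a median log2 ratio of 3.15. CIT1, the mitochondrial citrate synthase, had 4843 CPM at 1 day and 119.6 CPM in log phase (40.5-fold, 32.3 to 51.4), and ACO1, aconitase, had 7770.5 and 848 CPM (9.17-fold, 8.39 to 10.03). Succinate dehydrogenase was higher too, with 40.5-fold for SDH1 and 65.4-fold for SDH2, and the 2-oxoglutarate dehydrogenase genes KGD1 and KGD2 were 15.5- and 18.5-fold higher. LSC1, a subunit of succinyl-CoA ligase, was the exception, with 112 reads at 1 day and 110 reads in log phase.

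Of 39 nuclear genes for the respiratory chain and ATP synthase, 34 passed the filter and all of these were called higher, at a median log2 ratio of 2.52. Of the 34, 5 had fewer than 25 reads in log phase and passed through the 1 day reads. The 39 together took 3.23% of the reads at 1 day and 0.457% in log phase. ATP1 and ATP2, the alpha and beta subunits of the catalytic head of ATP synthase, had 5853 and 6755 CPM at 1 day, against 717 and 769.5 CPM in log phase (8.16- and 8.78-fold). The NADH dehydrogenase NDI1 and cytochrome c1, CYT1, were 24.5-fold (16.2 to 39.1) and 22.1-fold (15.1 to 33.6) higher, and the smallest ratio was 2.03-fold for ATP19, a small subunit associated with ATP synthase. POR1, the main porin of the outer mitochondrial membrane, had 9392 CPM at 1 day and 1029 CPM in log phase. From the mitochondrial genome, 2 genes passed the filter: COX2, a core subunit of cytochrome c oxidase, had 601 reads at 1 day and 38 in log phase (17.9-fold), and OLI1, the ring subunit of ATP synthase, 116 and 12 reads (11-fold). Mitochondrial ribosomes protect fragments of another size than cytosolic ones, so these 2 counts are less certain.

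Fatty acid breakdown, which in yeast takes place in peroxisomes, was higher from low levels. The 18 listed genes took 0.410% of the reads at 1 day, against 0.0336% in log phase; 9 passed the filter and all 9 were called higher. For 7 of the 9 log phase gave fewer than 25 reads, and for 2 of these none, so they passed through the 1 day reads and the count is a description. CTA1, the peroxisomal catalase, had 804 CPM at 1 day and 4.60 CPM in log phase, and FOX2, the multifunctional beta-oxidation enzyme, was 70.8-fold higher (35.7 to 165). POT1, the thiolase, had 106 reads at 1 day and none in log phase, at least 40.0-fold higher.

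**Figure D3:**
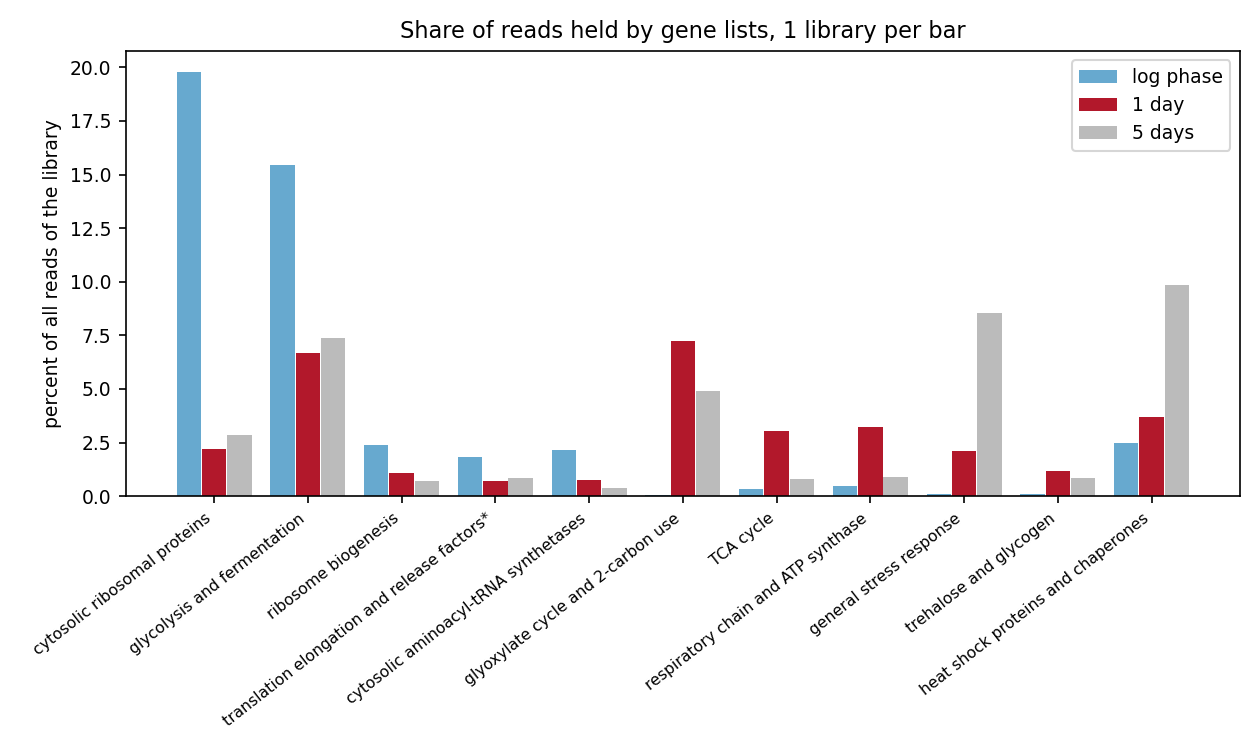
Percent of all footprint reads of a library held by each of 11 gene lists, in log phase, at 1 day and at 5 days; each bar is 1 library and has no error, and the asterisk marks elongation and release factors without EFB1 and TEF4. Ribosomal proteins held 19.8%, 2.19% and 2.84%, and the glyoxylate and 2-carbon list 0.0567%, 7.22% and 4.92%, in that order.

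Reserve carbohydrates and stress proteins were the next groups, and their promoters are shown first because many hold the stress response element (STRE), the letters AGGGG or, on the other strand, CCCCT, to which Msn2 and Msn4 bind. Within 500 bases upstream of the start codon, 34.1% of all 6000 promoters held at least 1 STRE and 8.13% held at least 2 in the RefSeq R64 assembly. For the trehalose and glycogen list these shares were 75% and 65.0% (20 promoters), and for the general stress list 81.0% and 45.2% (42 promoters). Among genes at least 2-fold higher at 1 day 54.1% held a STRE, among genes within 2-fold 36.4%, and among genes at least 2-fold lower 28.1%. A match is a run of letters and not a measured binding site. Below, STREs are in capitals on the gene's strand for PGM2, HSP12 and DDR2, 3 genes of these lists with several copies.
PGM2: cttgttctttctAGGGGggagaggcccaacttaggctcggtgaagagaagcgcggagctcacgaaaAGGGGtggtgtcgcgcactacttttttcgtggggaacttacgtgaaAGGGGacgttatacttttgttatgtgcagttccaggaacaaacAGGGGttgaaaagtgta
HSP12: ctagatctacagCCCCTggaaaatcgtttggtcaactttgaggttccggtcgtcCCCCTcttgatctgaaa
DDR2: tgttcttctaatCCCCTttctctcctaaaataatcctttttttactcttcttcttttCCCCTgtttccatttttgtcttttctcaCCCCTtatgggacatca
In R64, the PGM2 window is chrXIII:477806-477977 on the minus strand, 200 to 371 bases before the start codon, the HSP12 window is chrVI:107012-107082 on the plus strand, 174 to 244 bases before the start codon, and the DDR2 window is chrXV:231914-232015 on the minus strand, 159 to 260 bases before the start codon.

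Of the 20 trehalose and glycogen genes 15 passed the filter and 14 were called higher, with a median log2 ratio of 5.13, and the whole list took 1.17% of the reads at 1 day and 0.112% in log phase. Of the 15, 8 had fewer than 25 reads in log phase and passed through the 1 day reads. PGM2, the main phosphoglucomutase, which makes glucose-1-phosphate, had 1299 CPM at 1 day and 7.66 CPM in log phase, 169-fold higher (72.3 to 523). For trehalose, TSL1, the large regulatory subunit of the synthase, was 46.4-fold higher (32.1 to 69.6), TPS2, the phosphatase, 12.1-fold (9.42 to 15.9) and TPS1, the catalytic subunit, 6.05-fold (4.89 to 7.55). For glycogen, genes of synthesis and of breakdown were higher together. GSY2, glycogen synthase, was 36.6-fold higher and GLC3, the branching enzyme, 30.8-fold. GPH1, the phosphorylase, was 60.4-fold higher (32.6 to 127) and GDB1, the debranching enzyme, 65.4-fold (31.4 to 164). NTH1, the neutral trehalase, was also 6.21-fold higher. UGP1, which makes UDP-glucose, was the 1 gene of the 15 within 2-fold, with 250 reads at 1 day and 277 in log phase.

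The 42 general stress genes took 2.11% of the reads at 1 day and 0.0957% in log phase. Of the 32 that passed the filter 30 were called higher and 0 lower, at a median log2 ratio of 6.42 (5.61 with genes at 0 in log phase at their bound), but 23 of the 32 had fewer than 25 log phase reads. HSP12 (chromosome VI, 107256 to 107585, plus strand), a membrane-associated small stress protein whose promoter is printed above, had 1495 CPM at 1 day and 6.13 CPM in log phase, 244-fold higher (94.9 to 897). DDR2, a small stress-induced protein, had 531 reads at 1 day and 3 in log phase (201-fold, 68.2 to 975), and TMA10, a ribosome-associated protein, had 1629 CPM at 1 day and 10.7 CPM in log phase (152-fold, 73.4 to 379). CTT1, the cytosolic catalase, had 123 reads at 1 day and 1 in log phase, a ratio with an interval of 24.5 to 5547. GRE2 and GRE3, reductases, lay within 2-fold.

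HSP30 (chromosome III, 156109 to 157107, minus strand), a plasma membrane protein that restrains the proton pump and that the study uses as its example of a starvation-induced gene, had 3273 CPM at 1 day (1885 reads) and 10.7 CPM in log phase (7 reads), 305-fold higher (148 to 759.8). HSP26, a small heat shock protein that holds unfolded proteins, had 4859 CPM at 1 day and 30.7 CPM in log phase, 158-fold higher (102 to 259.9). HSP104, the disaggregase, started from a higher level, with 4556 CPM at 1 day and 405 CPM in log phase (11.3-fold, 9.92 to 12.8).

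Chaperones went in both directions. Of 32 listed, 27 passed the filter, 13 were called higher, 6 lower and 8 lay between, against 31.0% higher and 28.2% lower of all tested genes. Of the 27, 5 had fewer than 25 reads in log phase and passed through the 1 day reads. The higher ones included the stress-induced HSP70 gene SSA3 (128-fold, 54.5 to 396), SSA4 (8.85-fold), HSP42, another small heat shock protein (17.4-fold), and HSP78, the mitochondrial disaggregase (13.1-fold). HSP82, the inducible HSP90, was 3.31-fold higher (3.01 to 3.63), whereas HSC82, its constitutive copy, had a log2 ratio of -0.71 and was not called. The lower ones included chaperones of growing cells. SSB1 and SSB2, HSP70s that bind nascent chains on the ribosome, were 8.16-fold (6.93 to 9.66) and 4.24-fold lower, SSA2, a constitutive HSP70, 9.46-fold (8.22 to 10.9), and YDJ1, an HSP40, 3.40-fold. SSA1, another HSP70, had 1243 CPM in log phase here and 5339 and 6724 CPM in the time course log phase libraries. Reads shared between similar HSP70 genes may have been placed differently, which was not tested, so the values of SSA2, SSB1 and SSB2 are uncertain. Peroxide and superoxide defence genes had no common direction: of 18 that passed the filter 5 were higher and 6 lower, against 31.0% and 28.2% of all tested genes. The higher ones were PRX1, SOD2 and CCP1 of mitochondria, and the catalases CTA1 and CTT1. Among the lower ones were TSA1 and AHP1, cytosolic peroxiredoxins.

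Ribosomal protein genes were lower almost throughout. The 138 genes of both subunits had a median log2 ratio of -3.78 over the 134 that passed the filter, of which 131 were called lower and 1 higher. The large and small subunits lay close together, at -3.83 (75 of 77 lower) and -3.70 (56 of 57 lower). Proteins of the large subunit with many reads show the range: RPL39 had 59.0 CPM at 1 day and 1719.9 CPM in log phase (29.1-fold lower, 20.7 to 42.3), RPL3 had 1077 and 5819 CPM (5.40-fold, 4.96 to 5.89), and RPP0, the base of the stalk, had 1103 and 5385 CPM (4.88-fold, 4.49 to 5.32). RPS2 of the small subunit had 439 CPM at 1 day and 4185 CPM in log phase (9.53-fold, 8.37 to 10.9). The genes outside the pattern, RPL7A, RPL7B and RPS22B, each carry a snoRNA gene in an intron and are described with such genes further on. Without all such genes 130 of 130 were called lower. Mitochondrial ribosomal proteins did not share the difference, with 0.251% of the reads at 1 day and 0.283% in log phase over 81 genes, but 2 of them passed the filter and neither was called.

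Factors that build ribosomes were lower by less. The 146 ribosome biogenesis genes took 1.08% of the reads at 1 day and 2.40% in log phase, 79 passed the filter, 46 were called lower and 1 higher (NOG2, a snoRNA host), and the median log2 ratio was -1.15. Their promoters are known for a pair of motifs, PAC (GATGAG, or CTCATC on the other strand) and RRPE (AAAAATTTT, or AAAATTTTT, which overlap each other when both occur in one run). PAC was found in 89.7% and RRPE in 65.1% of these 146 promoters, against 28.2% and 9.47% of all 6000, whereas large-subunit ribosomal protein promoters held them in 22.2% and 12.3% of cases. The windows that follow hold both motifs, in capitals on the gene's strand. BRX1 is shown as a member with a large difference, and GAR1 and NIP7, chosen after their values were seen, because both motifs lie close together in a short stretch.
BRX1: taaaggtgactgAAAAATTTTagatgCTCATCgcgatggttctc
GAR1: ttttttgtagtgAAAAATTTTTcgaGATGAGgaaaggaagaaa
NIP7: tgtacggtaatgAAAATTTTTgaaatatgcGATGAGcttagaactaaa
In R64, the BRX1 window is chrXV:186852-186895 on the minus strand, 129 to 172 bases before the start codon, the GAR1 window is chrVIII:283406-283448 on the minus strand, 108 to 150 bases before the start codon, and the NIP7 window is chrXVI:153344-153391 on the plus strand, 104 to 151 bases before the start codon.

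BRX1, a factor of the large subunit, had 33.0 CPM at 1 day and 228 CPM in log phase, 6.92-fold lower (4.28 to 11.8). GAR1, a core protein of the H/ACA snoRNPs that guide pseudouridylation, had 45.1 CPM at 1 day and 258 CPM in log phase (5.70-fold lower, 3.76 to 8.99), and its partner NHP2 had 17.4 and 216 CPM (12.4-fold lower, 6.57 to 26.5). NIP7, which acts in making the large subunit, had 12.2 CPM at 1 day and 126 CPM in log phase (10.3-fold lower, 4.80 to 26.5). The C/D snoRNP proteins NOP58 and NOP56 were lower by less, 2.64-fold (2.19 to 3.19) and 2.79-fold (2.36 to 3.32). Of the RNA polymerase I subunits, which transcribe rDNA, 4 of 5 that passed the filter were called lower, among them RPA135, the second largest subunit (2.73-fold, 2.28 to 3.29).

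Translation factors and tRNA charging followed. Of 28 initiation factor genes 27 passed the filter, 18 were lower, 1 was higher (EAP1, which restrains the cap-binding protein), and the median log2 ratio was -1.38. TIF11, the factor eIF1A, was 11.3-fold lower (6.88 to 19.7) and SUI1, eIF1, 5.08-fold lower (3.55 to 7.45), whereas PAB1, the poly(A)-binding protein, had 800.5 CPM at 1 day and 1697 CPM in log phase (2.12-fold, 1.90 to 2.37) and DED1, an RNA helicase of initiation, had a log2 ratio of -0.84. All 21 cytosolic aminoacyl-tRNA synthetase genes passed the filter and 19 were lower, from 11.2-fold (7.33 to 18) for WRS1, which charges tryptophan, to DPS1 and FRS2, which lay within 2-fold.

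Among the elongation factors, YEF3 and its paralog HEF3 went in opposite directions. YEF3, the fungal elongation factor 3 that works on every ribosome, had 3282 CPM at 1 day and 11733 CPM in log phase (3.58-fold lower, 3.40 to 3.76). HEF3 had 436 reads at 1 day and 4 reads in log phase, 123-fold higher (47.9 to 455). It reached 757 CPM, still below YEF3. The log phase level of HEF3 depended on the library, with 6.13 CPM here and 81.7 and 42.3 CPM in the time course log phase libraries, so its ratio is smaller against those. HYP2, eIF5A, was 3.79-fold lower. EFT1, elongation factor 2, had 25 reads at 1 day and 115 in log phase (4.06-fold lower). Its log phase level depended on the library, with 176 CPM here and 6550 and 7200 CPM in the time course log phase libraries. Reads shared with its copy EFT2 make the value of EFT1 uncertain. TEF4 and EFB1, subunits of the exchange factor eEF1B, are snoRNA hosts: without them the list took 0.710% of the reads at 1 day and 1.83% in log phase, and with them 3.17% and 2.48%.

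Biosynthesis showed weaker and mixed differences, to be read against 28.2% of all tested genes lower and 31.0% higher. Of the 52 amino acid biosynthesis genes that passed the filter 20 were lower and 5 higher (median log2 ratio -0.59). HIS1, the first enzyme of histidine synthesis, was 11.1-fold lower (7.11 to 18.2) and SAM1, an S-adenosylmethionine synthetase, 9.74-fold lower (7.33 to 13.2), while GDH3, GLT1 and GLN1, which make glutamate and glutamine, were among the higher ones. GDH3, a glutamate dehydrogenase known from growth on ethanol, was 163-fold higher (69.4 to 503). Outside the list, GDH2, the NAD-dependent enzyme that breaks glutamate down, had 6631 CPM at 1 day and 67.4 CPM in log phase (98.3-fold, 73.1 to 136). No purine synthesis gene of the 10 that passed the filter was called in either direction. URA2, the first enzyme of pyrimidine synthesis, stood apart with 13011 CPM at 1 day and 1668 CPM in log phase (7.80-fold, 7.32 to 8.32). In ergosterol synthesis 8 of 22 genes were lower and 0 higher, led by ERG2 at 11.4-fold (7.5 to 18). In fatty acid synthesis 6 of 13 were lower and 2 higher: ELO3, an elongase, was 8.44-fold lower (6.33 to 11.5), OLE1, the desaturase, was 2.34-fold higher (2.09 to 2.63), and the synthase genes FAS1 and FAS2 had log2 ratios of -0.73 and -0.77.

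Protein turnover divided by route. Proteasome subunits hardly differed, with 1 of 34 called higher, 0 lower and a median log2 ratio of -0.05, and the 1 called was RPN4, the transcription factor for the proteasome (9.40-fold, 7.0 to 12.9). Autophagy genes and vacuolar proteases were higher: 11 of the 12 autophagy genes that passed the filter (of 38) and 7 of 8 proteases. Of the 12 autophagy genes 9 had fewer than 25 reads in log phase and passed through the 1 day reads, so that count is a description. ATG8, the ubiquitin-like protein that coats autophagosomes, was 25.1-fold higher (11.2 to 69.7) and ATG1, the kinase that starts autophagy, 16.4-fold (8.68 to 35.0). PEP4, the proteinase that activates the others, had 3681 CPM at 1 day and 570.2 CPM in log phase (6.46-fold, 5.78 to 7.23). The vacuolar proton ATPase went the other way, with 10 of 15 subunits lower, 0 higher and a median log2 ratio of -1.57, although VMA1, the catalytic subunit, had 1488 and 1638 reads.

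Membrane and nitrogen transport changed gene by gene. PMA1, the essential plasma membrane proton pump, had 5902 CPM at 1 day and 11527 CPM in log phase, 1.95-fold lower (1.88 to 2.03) and thus within 2-fold, and PMA2, its minor copy, was 57.8-fold higher (24.4 to 179), though lower against the time course log phase libraries (log2 ratios -0.68 and -0.38). Of 14 amino acid and ammonium permease genes 4 were higher and 3 lower, against 31.0% and 28.2% of all tested genes. PUT4, the proline permease, had 3634 CPM at 1 day and 7.66 CPM in log phase (474-fold, 203 to 1462), GAP1, the general permease, was 15.2-fold higher (8.0 to 32.4), and MUP1, the methionine permease, 6.55-fold lower (4.61 to 9.55). Histone genes were lower in 5 of 9 cases and higher in 0, with HTB2 at 9.73-fold (7.11 to 13.6) and HTB1, encoding nearly the same protein, at a log2 ratio of 0.52. Of the mating genes STE2 was 13.9-fold lower (9.32 to 21.5).

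Of 19 listed regulators of glucose repression and the Snf1 pathway 8 passed the filter, 5 were higher and 0 lower, against 31.0% of all genes higher. Of the 8, 3 had fewer than 25 reads in log phase and passed through the 1 day reads. The 3 within 2-fold were SNF1, REG1 and GLC7, the kinase and a phosphatase with its targeting subunit. CAT8, the activator of gluconeogenic genes, had 444 reads at 1 day and 4 in log phase (126-fold, 48.8 to 464). HAP4, the subunit that activates respiratory genes, was 47.5-fold higher (24.7 to 104.6), and ADR1, the activator of ADH2 and peroxisomal genes, 27-fold higher (18.9 to 40.0). Of 15 Ras and protein kinase A pathway genes that passed the filter 13 were higher and 0 lower (median log2 ratio 1.65). Of the 15, 5 had fewer than 25 reads in log phase and passed through the 1 day reads, so both counts are descriptions. Genes on both sides of the pathway were higher: GPA2, the G protein that activates adenylate cyclase, 11.3-fold, and IRA1 and IRA2, which turn Ras off, 5.62- and 3.14-fold. YAK1, a kinase that opposes growth, was 7.93-fold higher (4.94 to 13.4).

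Set beside stationary phase, several of these groups were highest at 1 day and others kept rising. In log phase, at 1 day and at 5 days the TCA cycle took 0.311%, 3.06% and 0.796% of the reads, and the respiratory genes 0.457%, 3.23% and 0.882%. The general stress list took 0.0957%, 2.11% and 8.54% at the same stages, and the chaperones 2.48%, 3.69% and 9.86%. Members of the 2-carbon list differed from each other at 5 days. PCK1 had 26.1, 10049 and 1085 CPM and ICL1 7.66, 3858 and 419 CPM in log phase, at 1 day and at 5 days. In the same order JEN1 had 6.13, 2648 and 5757 CPM and ADY2 9.20, 5576 and 11047 CPM. SFC1, another carrier, had 0, 1113 and 129.8 CPM, while ACS1 had 18.4, 10449.8 and 12764 CPM and ADH2 23.0, 8599 and 8800.0 CPM. HSP26 went on to 22867 CPM at 5 days and HSP30 to 20484 CPM. PDC1 was back at 34498 CPM at 5 days, close to its log phase value, while URA2, high at 1 day alone, had 613 CPM. The 5 day library held 169545 reads and is also single, so the steps between 1 and 5 days carry no error beyond counting.

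The acute side of the series can be read alongside, with values from cycloheximide-pretreated cells moved to glucose-free synthetic medium for 15 min and their pretreated log phase controls (2 libraries each), which share no library with the 1 day comparison. In that contrast 259 of 1966 genes were at least 2-fold higher and 208 at least 2-fold lower. Of the 259, 200 (77.2%) were also higher at 1 day, which is 35.0% of the 571 genes higher at 1 day, and of the 208, 186 (89.4%) were also lower at 1 day, 32.7% of 569. Higher at 1 day and lower after 15 min were 2 genes, RPL7A and OPI3, a phospholipid methyltransferase, and 9 did the reverse, among them HXT2, HXT3 and HXK2. Across these genes, which are not independent replicates, the log2 ratios correlated at Pearson's r = 0.729 and Spearman's rho = 0.699. The 8 members of the 2-carbon list measured in both had a median log2 ratio of 6.69 at 1 day and 1.04 after 15 min, and the 33 respiratory genes 2.52 at 1 day and 0.42 after 15 min. Ribosomal proteins had -3.78 at 1 day and -1.41 after 15 min, and the 26 stress genes measured in both 5.53 and 3.09. Purine synthesis genes were at -0.42 at 1 day and 1.23 after 15 min (10 genes each), and histone genes at -1.44 and 0.62 (9 genes each).

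The second measurement, polarity, tells where along a gene the footprints lie: negative scores down to -1 mean footprints gathered in the 5′ part of a gene, positive scores up to 1 in its 3′ part. At 1 day ribosomes lay further toward the 3′ end on most mRNAs. Over the 2136 genes with more than 25 reads in both libraries the median polarity was 0.177 at 1 day and 0.0181 in log phase, with quartiles of 0.0915 and 0.262 at 1 day and -0.0455 and 0.0932 in log phase. The difference per gene had a median of 0.148 and quartiles of 0.0601 and 0.229, and it was above 0 for 1841 genes (86.2%) and below for 295. By at least 0.2, 711 genes (33.3%) were higher and 27 (1.26%) lower. In either direction 34.6% of genes differed by at least 0.2, against 5.51% and 4.52% between replicate log phase libraries. Those 2 shares come from libraries of other depths and from 4686 and 553 genes. Of the stages of growth, 1 day had the highest scores: over the 680 genes measured in all 3 YPD libraries the medians were 0.0258 in log phase, 0.180 at 1 day and -0.00362 at 5 days.

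**Figure D4:**
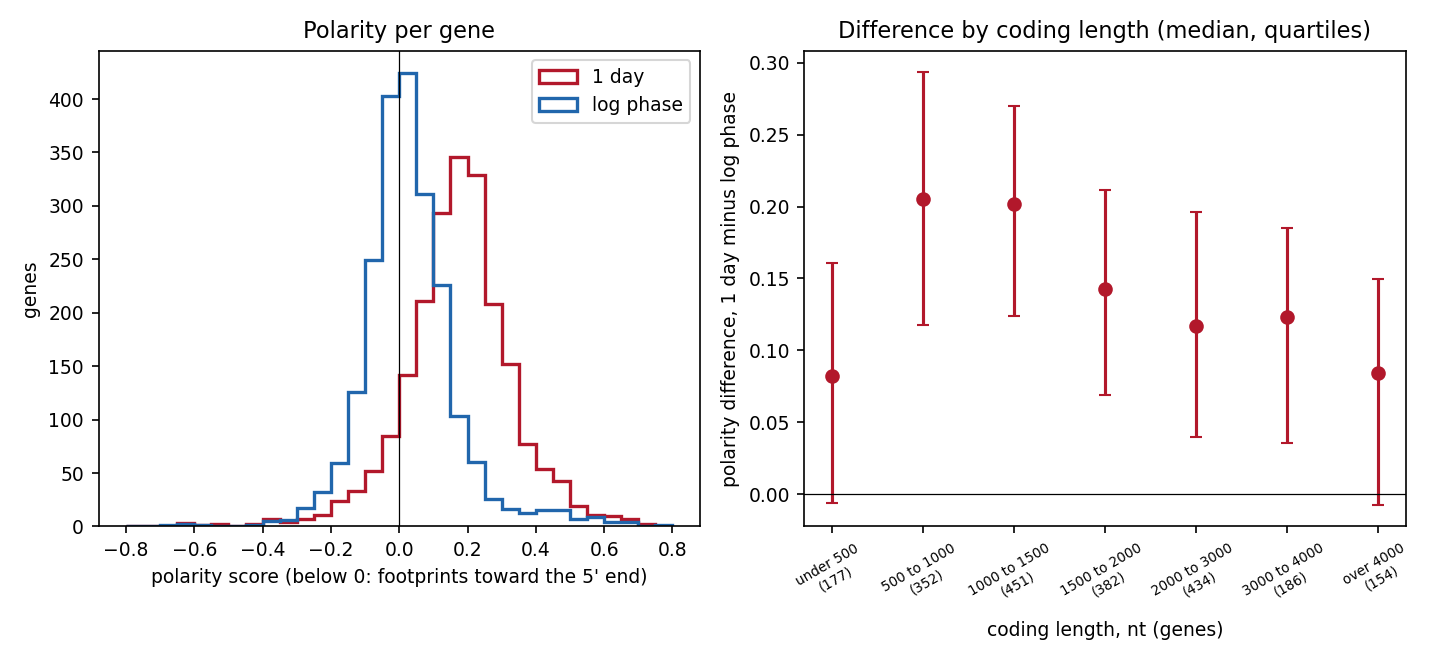
Left, histograms of the polarity score of 2136 genes at 1 day and in log phase, in bins of 0.05; right, the median of the difference per gene, 1 day minus log phase, in 7 bins of coding length, with bars from the lower to the upper quartile and the number of genes in brackets. The 1 day histogram is displaced toward positive scores, and the difference is greatest, at 0.205 and 0.202, for genes of 500 to 1000 and 1000 to 1500 nt.

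Genes of many kinds took part. Of those with at least 100 reads in both libraries the 8 largest rises were SBP1, TDH2, TDH3, SSA1, RCK2, TIF34, ATP3 and RPN9. SBP1, an RNA-binding protein that represses translation, had a polarity of 0.347 at 1 day and -0.109 in log phase. TDH3, the glycolytic dehydrogenase, had 0.295 at 1 day and -0.114 in log phase, on 4681 and 13969 reads, and ATP3, the gamma subunit of ATP synthase, 0.446 and 0.0715. TIF34, a subunit of eIF3, had 0.375 at 1 day and -0.00454 in log phase, and RPN9, a proteasome subunit, 0.312 and -0.0612. These 5 genes are in lists whose reads were mostly higher (ATP3), mostly lower (TIF34), level (RPN9) or mixed (TDH3, of the glycolysis list, and SBP1, of the mRNA decay list) at 1 day.

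By group, glycolysis had a median difference of 0.224, with 12 of 19 genes higher by at least 0.2, mitochondrial ribosomal proteins 0.222 (6 of 11) and ergosterol synthesis 0.212 (11 of 21). Over all genes the median was 0.148 and 33.3% were higher by at least 0.2. Medians were a little above that for initiation factors (0.192, 11 of 24), the TCA cycle (0.183, 6 of 14) and the vacuolar proton ATPase (0.184). Closer still to that of all genes were synthetases (0.172, 4 of 20), the proteasome (0.170, 14 of 35) and amino acid biosynthesis (0.168, 22 of 53). The share of synthetases higher by at least 0.2 was under that of all genes. Ribosome biogenesis (0.117, 22 of 82), the respiratory genes (0.114, 9 of 30) and ribosomal proteins (0.0746, 15 of 111) lay below the median of all genes. Departures of a group from that median were not tested. Ribosomal proteins had high scores in both libraries, with medians of 0.392 at 1 day and 0.320 in log phase, against 0.177 and 0.0181 over all genes. Genes with an intron and no snoRNA gene in it had 0.384 and 0.325. The median absolute difference per gene between replicate log phase libraries was 0.0613 and 0.0559. The difference varied little with the change in reads. It had a median of 0.127 over 414 genes at least 2-fold higher at 1 day and 0.147 over 826 genes within 2-fold. Over 473 genes at least 2-fold lower it was 0.153. All had more than 25 reads in both libraries, which leaves out part of the 626 higher genes. The median coding lengths of these groups were 1942.5, 1768.5 and 1020 nt, and length was not accounted for.

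For the genes the study follows, the polarity differences were as follows. PGK1 had 0.176 at 1 day and -0.0262 in log phase, CDC19 0.242 and 0.00613, and PAB1 0.148 and -0.0702. HSP104, which gained reads at 1 day, had 0.106 at 1 day and -0.0421 in log phase. HSP30, with 7 log phase reads, had too few for a difference, and its polarity at 1 day was 0.133. Among the genes that were almost silent in log phase, the 1 day polarity differed widely: ACS1 had 0.133, ADH2 0.311, PCK1 0.476, HSP26 0.164 and HSP12 -0.00987. Over all 626 genes at least 2-fold higher, all of which had more than 25 reads at 1 day, the median polarity at 1 day was 0.163 and 87.7% were positive.

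Both measures went with coding length. The median polarity difference was 0.0821 below 500 nt, 0.205 from 500 to 1000 nt, 0.202 from 1000 to 1500 nt, 0.143 from 1500 to 2000 nt, 0.117 from 2000 to 3000 nt, 0.123 from 3000 to 4000 nt and 0.0840 above 4000 nt, so the shortest and longest genes differed least. The log2 ratio of reads went with length as well, with medians of -2.03 below 500 nt (213 genes) and 0.73 above 4000 nt. Without ribosomal proteins the median below 500 nt was 0.06 (130 genes). Across 2021 genes coding length and the log2 ratio had a Spearman correlation of 0.338, and 0.221 over the 1887 genes left without ribosomal proteins, whose genes are short.

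Falls in polarity were rare, and genes with a snoRNA gene in an intron were among them. The 8 largest among genes with at least 100 reads in both libraries were EFB1, PTM1, RPL7A, SCJ1, RPS22B, IMD4, TEF4 and STE6. EFB1, RPL7A, RPS22B, IMD4 and TEF4 each have an intron that holds a snoRNA gene. The deposited gene lengths match whole gene spans, introns included, for 5322 of 5361 genes, but whether reads in introns were counted was not tested. In all, 8 genes counted here hold a snoRNA gene in an intron (found in the RefSeq R64 annotation after these values had been seen), and 6 of them were among the 27 genes lower by at least 0.2. TEF4 (chromosome XI, 282891 to 284455, plus strand, 2 coding exons), which holds SNR38 at 21.8% of the gene's length, had a polarity of -0.0630 at 1 day and 0.174 in log phase, and 20514 CPM at 1 day and 3260.5 CPM in log phase. EFB1, with SNR18 at 24.7% of its length, had a polarity of -0.443 at 1 day and 0.243 in log phase. IMD4, an IMP dehydrogenase with SNR54 at 30.2% of its length, had -0.384 and -0.0979, and 10351 CPM at 1 day against 1013 CPM in log phase.

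RPL7A, with SNR39 near its middle, had a polarity of 0.00319 at 1 day and 0.435 in log phase, and its reads, 2353 CPM at 1 day and 1081 CPM in log phase, made it the 1 ribosomal protein gene called higher. RPL7B and RPS22B had 0.00687 and -0.0745 at 1 day, against 0.308 and 0.222 in log phase. ASC1 and NOG2, whose snoRNA genes lie at 53.6% and 52.1% of the gene, were not lower by 0.2 and had differences of 0.116 and -0.0163. Together the 8 genes took 4.10% of the reads at 1 day and 1.5% in log phase. Genes with introns but no snoRNA gene in them had a median difference of 0.0599, with 14 of 121 higher by at least 0.2 and 1 lower (RPS9A). The part of snoRNA fragments in these 8 genes' counts was not tested, and the values of TEF4, EFB1, IMD4, RPL7A and NOG2 are uncertain for that reason. PTM1, SCJ1 and STE6 hold no such gene: SCJ1, an HSP40 of the endoplasmic reticulum, had -0.573 at 1 day and -0.160 in log phase, and STE6, the exporter of a-factor, -0.177 and 0.0406.

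**Figure D5:**
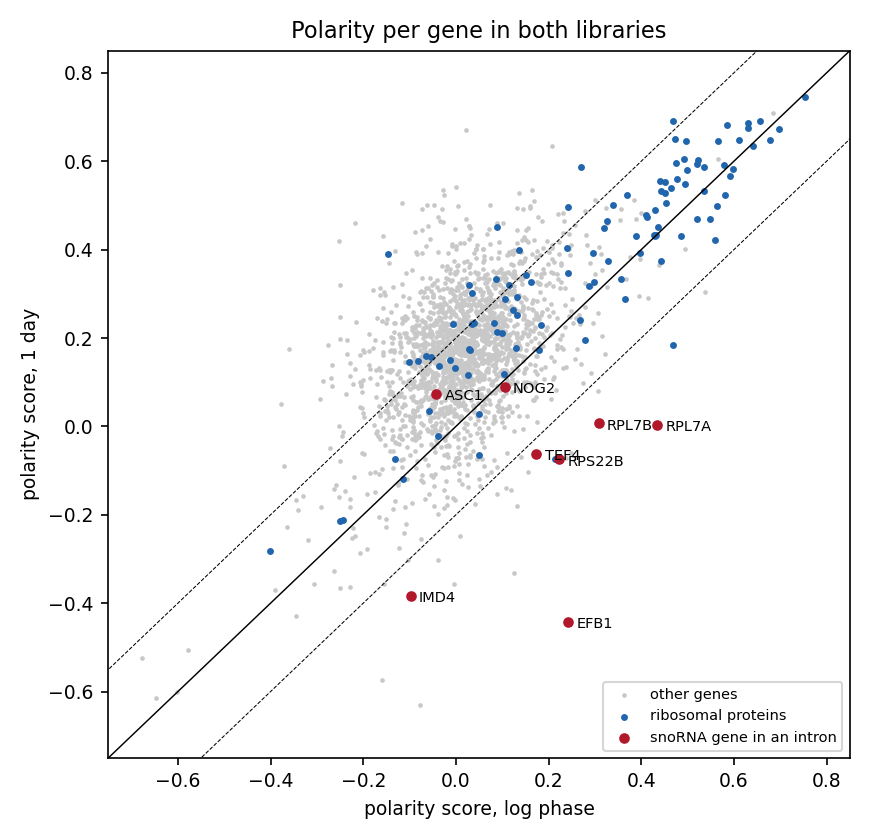
Polarity score of 2136 genes at 1 day (vertical) and in log phase (horizontal); the solid line is equality, the dashed lines lie 0.2 above and below it, blue points are ribosomal proteins and named red points are the 8 genes with a snoRNA gene in an intron. Most points lie above equality, and 6 of the 8 red points lie below the lower dashed line.

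The polarity shift after 15 min without glucose, in pretreated cells, had a median of 0.216 over 2124 genes for which the 1 day difference had a median of 0.148. The starting levels differed: the median score was 0.0939 after 15 min and -0.133 in the pretreated log phase, against 0.177 at 1 day and 0.0181 in YPD log phase over the 2136 genes above. Gene by gene they were hardly related, with Pearson's r = 0.0439 and Spearman's rho = 0.0161 across those genes, in contrast to the counts. Differences of single genes carry noise, with a median absolute value of 0.0613 and 0.0559 between replicate log phase libraries. The contrasts also differ in medium and pretreatment. The study describes runoff near the start codon in log phase cells without pretreatment, which it regards as an artifact of harvest. The cause of the low correlation was not tested.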

How the data were processed

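Per the study's methods, the authors trimmed reads with Cutadapt, dropped those under 17 nt or without adapter, removed non-coding RNA and aligned the rest to R64 with Bowtie, collapsed PCR duplicates by molecular identifier, and made the deposited counts per gene with HTSeq. Neither the labels nor the methods state the versions of these tools. The deposited polarity score per gene came from the authors' own Python code. Genes were named from the RefSeq R64 annotation, in which 4 of 5731 gene IDs were not found.

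Counts were divided by the library's total over genes, and log2 ratios used 0.5 reads added to each count. Genes with at least 100 reads over both libraries were kept for counts, and genes with more than 25 reads in each for polarity. Intervals of count ratios were exact (Clopper-Pearson, conditional on the sum of both counts). Python 3.11.15, numpy 2.4.6, pandas 2.3.3, scipy 1.17.1, R 4.3.3, edgeR 4.0.16 (TMM factors only) and DESeq2 1.42.0 (size factors only) were used, and the scripts were tested on simulated data. The comparison, the 43 gene lists and the naming rule were chosen with earlier results of these data known. Named genes were the 12 largest rises and falls in counts, the 8 largest polarity differences each way, of each list the 4 largest changes, the 3 with most CPM at 1 day and the 2 largest polarity differences, and genes the study names, given in part. Promoter motifs were exact matches on either strand in the 500 bases before the start codon. RNA-seq libraries were not used here.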

Additional observations from a re-analysis of the deposited data

How the results depend on the processing

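No paired analysis was possible because each condition has 1 library. Counts of genes at least 2-fold higher and lower (626 and 569 of 2021) were within 1.5 times under TMM factors (581 and 640), median-of-ratios size factors (573 and 650), a library size without ribosomal protein genes (544 and 693), 5 added reads (617 and 549) and without the 8 snoRNA hosts (622 and 568, chosen after seeing the data). The first 3 of these move every log2 ratio by -0.16, -0.18 and -0.29. Being under the median difference between replicates (0.32), shifts of this size could move none of the 37 list medians and 262 named ratios beyond it. With 5 added reads 4 of the medians and 55 of the ratios moved by more than that.

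Filters and the log phase library moved more. With no filter 1804 genes were higher and 1214 lower (of 5419), and with at least 500 reads 133 and 227 (of 489). Against the log phase libraries of the time course, grown in synthetic medium, 1203 genes were higher and 747 lower with library 1 (of 3638), and 599 higher and 241 lower with library 2 (of 1225), so that 61.7% and 71.3% of the calls were upward, against 52.4%. With these libraries 25 and 22 of the 37 list medians and 187 and 173 of the 262 named ratios moved by more than the replicate difference without turning round, and 3 named ratios with each turned round. Genes with polarity higher by at least 0.2 (711 of 2136) numbered 165 and lower ones (27) numbered 9 at over 100 reads (of 539), 1317 and 86 at over 10 reads (of 3459), 156 and 14 against time course library 2 (of 521), and 837 and 111 against library 1 (of 2886). The median polarity difference stayed at 0.126 to 0.157. Log2 ratios turned round against libraries 1 and 2 for TDH1 (-2.35, -1.81), ENO1 (-1.10, -0.62) and PMA2 (-0.68, -0.38). The polarity difference of NOP58 turned round against library 2 (-0.0703). Medium and culture differ there, reads shared between similar genes may have been placed differently, and the cause was not tested. Under about 25 reads in log phase, intervals of single ratios spanned 2-fold or more, and no setting supplies the missing replicate spread.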

Other observations

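The 4 cell wall genes given here belong to none of the lists and were picked after their values were seen. CCW12, a mannoprotein of growing walls, had 1663 CPM at 1 day and 10925 CPM in log phase (6.57-fold lower, 6.14 to 7.03). TIP1, a mannoprotein known from cold shock, had 7942 CPM at 1 day and 754 CPM in log phase (10.5-fold higher, 9.59 to 11.6), and SED1, a major wall protein of stationary phase cells, had 8451 and 1341 CPM (6.30-fold, 5.86 to 6.78). HSP150, a secreted wall protein, had 1381 CPM in log phase, 10031 CPM at 1 day and 949.6 CPM at 5 days. On a scale corrected for gene length (TPM), the highest gene at 1 day was TEF4, a snoRNA host whose reads are uncertain, followed by TIP1, while in log phase it was CCW12, followed by TDH3.

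Smaller groups of the lists were less uniform, and over all tested genes 31.0% were higher and 28.2% lower. Of 14 mRNA decay and P-body genes that passed the filter 4 were higher (EDC2, NGR1, CCR4 and PAN3) and 1 lower: EDC2, an activator of decapping, was 11.7-fold higher (6.88 to 21.4), and PUB1, an RNA-binding protein, 2.40-fold lower (1.99 to 2.90). Of 17 genes for vesicle coats and the translocon 7 were lower and 0 higher, with SSS1, a small subunit of the translocon, at 8.51-fold (4.90 to 16). Of 15 sporulation genes SPS100, a spore wall protein, alone passed the filter, with 475 reads at 1 day and 5 in log phase (108-fold higher, 45.8 to 333).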
